A study of Rattus norvegicus with 24 samples.

Results

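The genes described here govern the calcium held in the endoplasmic reticulum: the ryanodine receptor genes Ryr1, Ryr2 and Ryr3, the inositol trisphosphate (IP3) receptor genes Itpr1, Itpr2 and Itpr3, the SERCA pump genes Atp2a1, Atp2a2 and Atp2a3, and the store sensor gene Stim1. They were taken by symbol from the table's gene names, and 10 of 10 were found, each with a single entry among 32883 genes. Messenger RNA of rats (Sprague-Dawley, 7 months of age) was sequenced. Each of 4 organs (liver, brain, thymus, spleen) gave 3 libraries from SAM-exposed animals, numbered 1, 2, 3 and 5, and 3 from sham-exposed animals, numbered 13 to 17. The groups are called SAM and Sham below. The series title speaks of exposure to PCBs (polychlorinated biphenyls), while the sample labels say SAM. The labels used here give no dose, route or duration, and no genotype beyond the strain.

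Ryanodine receptors and IP3 receptors are the channels through which stored calcium leaves the endoplasmic reticulum. Ryanodine receptors open on calcium itself or on a voltage sensor, and IP3 receptors on IP3 made by phospholipase C. SERCA pumps refill the store with ATP, and STIM1 senses an emptied store and opens Orai channels in the plasma membrane. In neurons these channels shape dendritic and synaptic calcium signals, and in lymphocytes store release with the following entry through Orai drives activation. Some ortho-substituted PCBs are known to sensitise ryanodine receptors. The comparison of exposed and sham rats asks whether transcripts of this system differ.

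Levels are given as CPM, counts scaled to library size after TMM over all 24 libraries, a correction that sets the bulk of genes level between libraries. They are not divided by transcript length, so levels are compared between tissues or groups for 1 gene at a time. Totals per library lay between 12.85 and 20.12 M counts. Marker genes fitted the labelled organs. For example, 6 hepatocyte markers summed to at least 309939 CPM in liver and at most 45.7 CPM elsewhere, and 5 neuron markers to at least 3255 CPM in brain and at most 23.4 CPM elsewhere. For 4 immature thymocyte markers the sums were at least 3112 CPM in thymus and at most 5.56 CPM elsewhere, and for 5 B cell markers at least 1561 CPM in spleen and at most 88.7 CPM elsewhere. Some libraries stood apart. In brain, 8 olfactory bulb markers summed to 733 CPM in SAM 1 and 710.3 CPM in SAM 2, but 42.1 CPM in SAM 3 and 33.4 to 45.4 CPM in Sham, so differences in brain are also given without SAM 1 and SAM 2, or library by library. Mitochondrially encoded genes took 17.8% of liver SAM 1 and 5.71 to 8.07% of the remaining liver libraries.

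The families were used differently by the 4 organs, a pattern read first in the 12 Sham libraries. Transcripts of Ryr2, Ryr3, Itpr1 and Atp2a2 were highest in brain, those of Itpr2, Atp2a1, Atp2a3 and Stim1 in thymus, and Itpr3 was high in both spleen and thymus. Liver was lowest for the ryanodine receptor genes, Itpr1, Itpr3 and Stim1. Tests between pairs of organs passed an adjusted p of 0.05 (edgeR quasi-likelihood test, Benjamini-Hochberg over 17204 genes) in 49 of 60 member comparisons. Most genes passed as well. Of 10 members, 8 passed between brain and liver, where 81.4% of all genes did. Thymus and liver gave 9 (77.3% of all genes), spleen and liver 9 (76.1%), brain and thymus 10 (82.5%), brain and spleen 8 (82.4%), and thymus and spleen 5 (62.3%). With such a background the count of calls says little about the members, and what follows gives direction and size. In bulk tissue, fewer cells of a type and less RNA per cell cannot be told apart.

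Promoters of 4 members with large differences between organs are shown: Ryr2 and Itpr1, highest in brain, and Itpr3 and Atp2a3, highest in the lymphoid organs. Each is the 250 bases before the annotated start, 5′ to 3′ on the gene's strand, from RefSeq on build GRCr8, which is not the rn6 build named for the deposited counts. They lie at chr17:63081277-63081526 (Ryr2, plus strand), chr4:142743190-142743439 (Itpr1, plus strand), chr20:5138562-5138811 (Itpr3, plus strand) and chr10:58080402-58080651 (Atp2a3, plus strand). Capitals mark GGGCGG (GC box), CCGGAAG (ETS core), TGACGTCA (cAMP response element) and GCGTG (aryl hydrocarbon receptor core) on either strand, and GC boxes that overlap are counted separately.
Ryr2: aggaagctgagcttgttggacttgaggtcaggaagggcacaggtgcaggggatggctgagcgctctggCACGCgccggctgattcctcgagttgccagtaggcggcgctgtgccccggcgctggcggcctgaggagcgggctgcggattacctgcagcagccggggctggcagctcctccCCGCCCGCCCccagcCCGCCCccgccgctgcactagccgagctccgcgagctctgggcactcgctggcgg
Itpr1: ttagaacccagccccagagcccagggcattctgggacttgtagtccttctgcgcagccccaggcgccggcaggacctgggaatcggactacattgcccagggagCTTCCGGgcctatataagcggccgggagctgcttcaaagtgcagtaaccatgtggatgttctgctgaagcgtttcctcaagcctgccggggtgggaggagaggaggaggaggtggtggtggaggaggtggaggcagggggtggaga
Itpr3: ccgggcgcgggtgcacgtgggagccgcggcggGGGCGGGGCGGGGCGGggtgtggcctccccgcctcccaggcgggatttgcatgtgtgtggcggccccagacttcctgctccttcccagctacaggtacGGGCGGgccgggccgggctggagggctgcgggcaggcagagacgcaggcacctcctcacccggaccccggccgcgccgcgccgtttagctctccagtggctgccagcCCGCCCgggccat
Atp2a3: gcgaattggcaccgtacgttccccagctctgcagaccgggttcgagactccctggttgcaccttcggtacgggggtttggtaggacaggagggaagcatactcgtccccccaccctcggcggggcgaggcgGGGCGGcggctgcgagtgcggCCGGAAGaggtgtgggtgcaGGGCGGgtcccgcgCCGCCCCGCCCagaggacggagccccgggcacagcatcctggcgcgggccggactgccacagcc

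The Itpr3 window held 5 GC boxes, and the Atp2a3 window 4 GC boxes and 1 ETS core. Ryr2 had 3 GC boxes and 1 GCGTG, while Itpr1 had 1 ETS core and no GC box. All 10 members matched the RefSeq table, with 11 windows because Ryr3 has another start. GGGCGG was in 9 of 11 windows, against 30.5% of all 33469 windows of that length. GCGTG was in 5 of 11 (25.9% of all), CCGGAAG in 2 of 11 (7.27%), and TGACGTCA (1.59%) and TATAAA, the TATA box (4328 of the 33469), in 0 of 11. In G and C content, 10 of 11 windows were above the median of all windows, 51.2%. These matches describe letters in the window and do not show that a factor binds there.

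**Figure D1:**
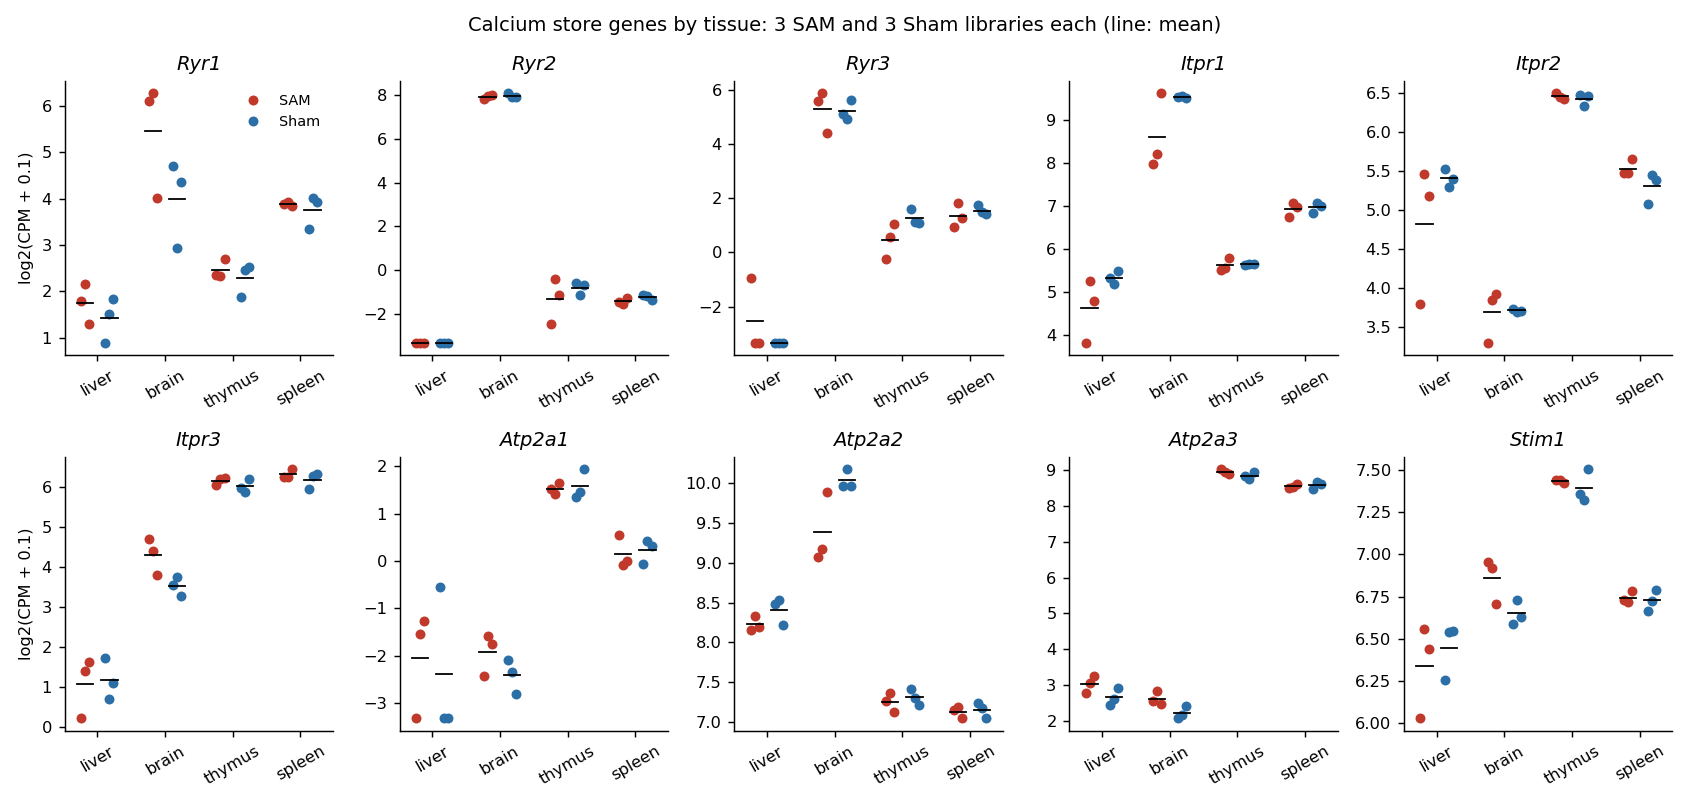
Each panel plots 1 gene as log2(CPM + 0.1) in SAM (red, left) and Sham (blue, right) libraries of each organ, with 1 point per library and a line at the mean of 3. Ryr2 is high in brain alone, Atp2a3 in thymus and spleen, and in brain the points of SAM 1 and SAM 2 sit apart from SAM 3 for Ryr1, Itpr1 and Atp2a2.

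Ryr2 (ENSRNOG00000017060), the ryanodine receptor of heart that is also the main form of brain, averaged 252 ± 15.4 CPM in Sham brain (SD, n = 3, as for all means below). It had 0 counts in each liver library. A count of 0 allows up to 0.441 CPM in the shallowest Sham liver library (3 counts, counting error only), so brain was at least 572-fold higher than liver. Thymus held 0.481 ± 0.109 CPM and spleen 0.325 ± 0.0352 CPM, on 5 to 16 reads per library. Brain exceeded thymus by 9.02 ± 0.14 on the log2 scale (estimate ± SE, edgeR adjusted p = 5.36e-13) and spleen by 9.56 ± 0.15 (edgeR adjusted p = 7.75e-13).

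Ryr3 (ENSRNOG00000006645), a form present at low level in many tissues, averaged 37.7 ± 9.86 CPM in Sham brain, 2.83 ± 0.354 CPM in spleen and 2.33 ± 0.521 CPM in thymus, with 0 counts in all Sham liver libraries. Against the same floor, brain was at least 85.6-fold, spleen at least 6.41-fold and thymus at least 5.29-fold higher than liver. Thymus and spleen did not differ beyond their spread (-0.27 ± 0.24, adjusted p = 0.349).

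Ryr1 (ENSRNOG00000020557), the skeletal muscle form, was read in all 4 organs. Its Sham mean was 17.9 ± 9.37 CPM in brain, 13.7 ± 3.23 CPM in spleen, 4.89 ± 1.13 CPM in thymus and 2.67 ± 0.862 CPM in liver. Brain and spleen overlapped (0.39 ± 0.35, adjusted p = 0.315). This depended on the libraries used. Without brain Sham 15, the lowest brain library, brain was above spleen by 0.76 (adjusted p = 0.0143). In SAM libraries the difference was 1.91 (edgeR adjusted p = 0.00176), with brain SAM 1 and SAM 2 the highest. Thymus minus liver was 0.86 ± 0.47, which did not pass (adjusted p = 0.112) but did by DESeq2 (0.93, adjusted p = 0.0394). Of 8 skeletal muscle markers 6 were found. They summed to 25.3 to 31.0 CPM in Sham brain, where Ckm was at 0 in all libraries, to 18.9 to 19.8 CPM in spleen, to 10.1 to 13.3 CPM in thymus and to 1.01 to 1.14 CPM in liver, where Acta1 and Ckm were at 0. Their part in the Ryr1 reads was not tested.

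Itpr1 (ENSRNOG00000007104), the IP3 receptor abundant in neurons and above all in Purkinje cells, averaged 736 ± 12.47 CPM in Sham brain. Spleen had 125 ± 10.6 CPM, thymus 49.6 ± 0.665 CPM and liver 40.3 ± 4.21 CPM. Neighbours in this order did not overlap, with brain over spleen by 2.55 ± 0.098 (adjusted p = 3.76e-11) and thymus over liver by 0.30 ± 0.097 (adjusted p = 0.0131). Thymus over liver was lost without Sham liver 14 (0.23, adjusted p = 0.0680).

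Itpr2 (ENSRNOG00000001804), known as the main form of hepatocytes, was highest in thymus at 85.7 ± 4.55 CPM and lowest in brain at 12.98 ± 0.179 CPM. Spleen, at 39.6 ± 5.29 CPM, and liver, at 42.3 ± 3.39 CPM, overlapped. Spleen minus liver was -0.096 ± 0.10 (adjusted p = 0.412) and became 0.28 (adjusted p = 0.0197) without Sham spleen 14. Itpr3 (ENSRNOG00000052795), a form of epithelial and lymphoid cells, averaged 65.3 ± 7.46 CPM in Sham thymus and 73.7 ± 10.4 CPM in spleen, which did not differ beyond their spread (-0.17 ± 0.15, adjusted p = 0.324). Brain had 11.6 ± 1.91 CPM and liver 2.26 ± 0.883 CPM, a difference of 2.38 ± 0.25 (adjusted p = 9.17e-07).

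Among the pumps, Atp2a2 (ENSRNOG00000001285), the SERCA2 gene used by most cells, averaged 1047 ± 90.9 CPM in Sham brain, 342 ± 37.8 CPM in liver, 159 ± 10.8 CPM in thymus and 143 ± 9.60 CPM in spleen. Brain exceeded liver by 1.61 ± 0.11 (adjusted p = 1.55e-08), and thymus and spleen overlapped (0.16 ± 0.11, adjusted p = 0.234). Atp2a3 (ENSRNOG00000017912), the SERCA3 gene of blood cells and platelets, ran the other way, with 463 ± 34.9 CPM in thymus, 386 ± 28.7 CPM in spleen, 6.25 ± 1.06 CPM in liver and 4.57 ± 0.599 CPM in brain. Brain minus thymus was -6.66 ± 0.15 (adjusted p = 4.13e-13). Brain minus liver was -0.45 ± 0.15 (adjusted p = 0.0166), but -0.24 (adjusted p = 0.154) with RLE size factors, another scaling. That call was lost too without Sham liver 15 (-0.31) and without Sham brain 13 (-0.37). Thymus minus spleen was 0.26 ± 0.11 (adjusted p = 0.0533), and passed with RLE size factors (0.29) and without Sham thymus 15 (0.31).

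Atp2a1 (ENSRNOG00000047124), the SERCA1 gene of fast skeletal muscle, was read at 2.93 ± 0.691 CPM in thymus and 1.08 ± 0.194 CPM in spleen, a difference of 1.44 ± 0.39 (adjusted p = 0.00573). Sham brain held 1 to 3 reads and Sham liver 0 to 4 reads per library, near the floor of 3, so no difference is read against them. Stim1 (ENSRNOG00000020425) had a ratio of the highest to the lowest Sham mean of 1.92, against 6.604 for Itpr2 and 101 for Atp2a3. It averaged 168 ± 11.4 CPM in thymus, 106 ± 4.52 CPM in spleen, 100.5 ± 5.17 CPM in brain and 87.5 ± 9.71 CPM in liver. Thymus was above spleen by 0.67 ± 0.092 (adjusted p = 3.31e-05).

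The smaller Stim1 differences depended on the scaling or on single libraries. Brain minus spleen was -0.074 ± 0.092 (adjusted p = 0.469) and 0.10 with RLE size factors. Brain minus liver was 0.20 ± 0.094 (adjusted p = 0.0660) and passed with RLE size factors (0.41, adjusted p = 0.00102) and without Sham liver 15 (0.25). Spleen minus liver, 0.27 ± 0.094 (adjusted p = 0.0178), was lost without Sham liver 13 (0.18) and without Sham spleen 17 (0.24). RLE in place of TMM moved the median of all genes by 0.15 between brain and liver, 0.15 between brain and spleen and 0.12 between brain and thymus.

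Isoform use was also read as the share of a family's raw reads on each gene, which is not corrected for length and is compared only between organs and groups. In Sham brain Ryr2 took 82.1 ± 4.33% of ryanodine receptor reads, while Ryr1 took 80.6 ± 6.05% in spleen and 62.97 ± 10.6% in thymus. In Sham liver all 12 to 24 reads of the family per library fell on Ryr1. Itpr1 took 96.8 ± 0.184% of IP3 receptor reads in Sham brain, 52.7 ± 1.72% in spleen, 47.5 ± 2.86% in liver and 24.8 ± 1.49% in thymus, where Itpr2 held 42.7 ± 1.20%. Itpr3 held 32.5 ± 1.97% in thymus and 30.8 ± 1.46% in spleen, 2.63 ± 0.891% in liver and 1.53 ± 0.223% in brain. Among the pumps, Atp2a3 took 74.0 ± 2.25% in thymus and 72.8 ± 2.51% in spleen, and Atp2a2 98.1 ± 0.463% in liver and 99.6 ± 0.0737% in brain. Pump reads thus came almost wholly from Atp2a2 in brain and liver, and mostly from Atp2a3 in both lymphoid organs.

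**Figure D2:**
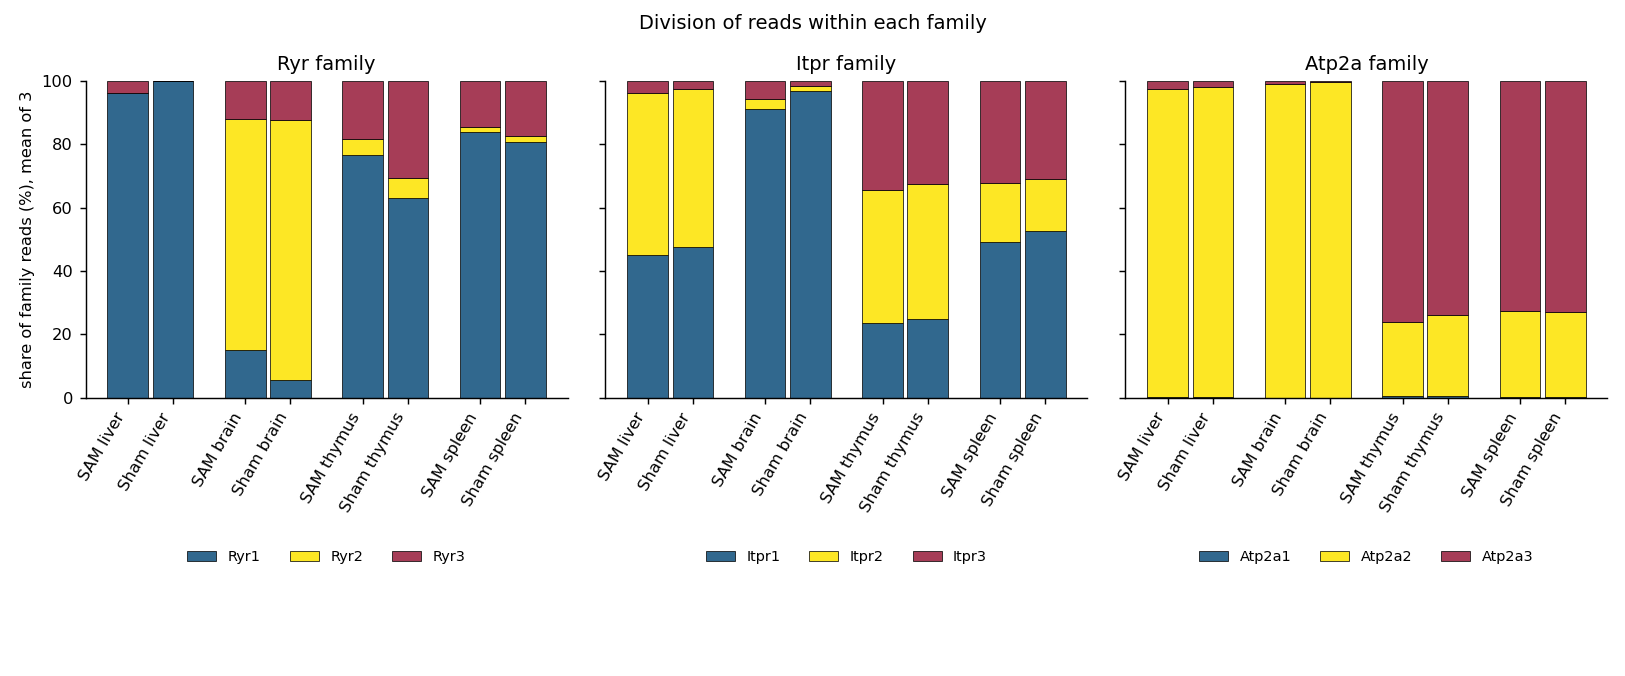
Stacked bars give the share (%) of each family's raw reads on each of its 3 genes, as the mean of 3 libraries, with the SAM bar left of the Sham bar in each organ. Brain stands out by Ryr2 and Itpr1, thymus and spleen by Atp2a3.

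The genes whose log2 CPM ran most like each member over the 24 libraries, among 15222 genes, were named as a description by Pearson r. For Ryr2 these were Ncdn (0.996) and Prkar1b (0.996), and for Atp2a3 Unc13d (0.997) and Mcm3 (0.995). Itpr1 was followed by Ccdc32 (0.985) and Osbpl6 (0.983), Itpr2 by Aff1 (0.988) and Zcchc2 (0.985) and Itpr3 by Proser1 (0.990) and Bcl2 (0.987). For Ryr3 they were Rn50_13_0839.5 (0.982) and Cdk5r1 (0.980), for Atp2a2 Rnf14 (0.990) and Dmxl2 (0.986) and for Stim1 both entries of Cux1 (0.977 and 0.9749). The values were lower for Atp2a1, with Folr1 (0.959) and Nle1 (0.953), and Ryr1, with Reck (0.947) and Itga10 (0.946). Between members, r was highest for Atp2a1 with Atp2a3 (0.899) and lowest for Atp2a2 with Atp2a3 (-0.883). The points, 6 libraries of each of 4 organs, share organ and sequencing depth.

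The exposure comparison set SAM against Sham within each organ, and no member passed in any of them. edgeR's quasi-likelihood test, adjusted over all genes of the organ above its filter on low counts, covered 9 members in brain, 10 in thymus, 9 in spleen and 7 in liver. It called 0 of them at an adjusted p of 0.05, as it called 0% of all genes (15126 in brain, 15036 in thymus, 14530 in spleen, 12130 in liver). DESeq2 also called 0 members in each organ. At an unadjusted p of 0.05, 5 of 9 members passed in brain, where 20.5% of all genes did. None passed at that level in liver (2.7% of all genes), thymus (6.13%) or spleen (4.11%). The groups of a member did not overlap in 3 of 9 cases in brain (24.5% of all genes), 1 of 10 in thymus (11.5%), 1 of 9 in spleen (9.15%) and 0 of 7 in liver (10.7%).

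The median log2 fold change of the tested members, SAM minus Sham, was -0.079 in liver (all genes 0.018), 0.20 in brain (all genes 0.011), -7.5e-06 in thymus (all genes -0.0014) and -0.026 in spleen (all genes 0.0028). Whether the exposure difference itself differed between organs was tested by the interaction of exposure and organ. It passed for 2 of 17623 genes (0.0113%), Scin and Gldc, which are no members. The members' adjusted p ran from 0.558 for Atp2a2 to 0.986 for Ryr2, with 0 of 10 under 0.05 before adjustment.

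**Figure D3:**
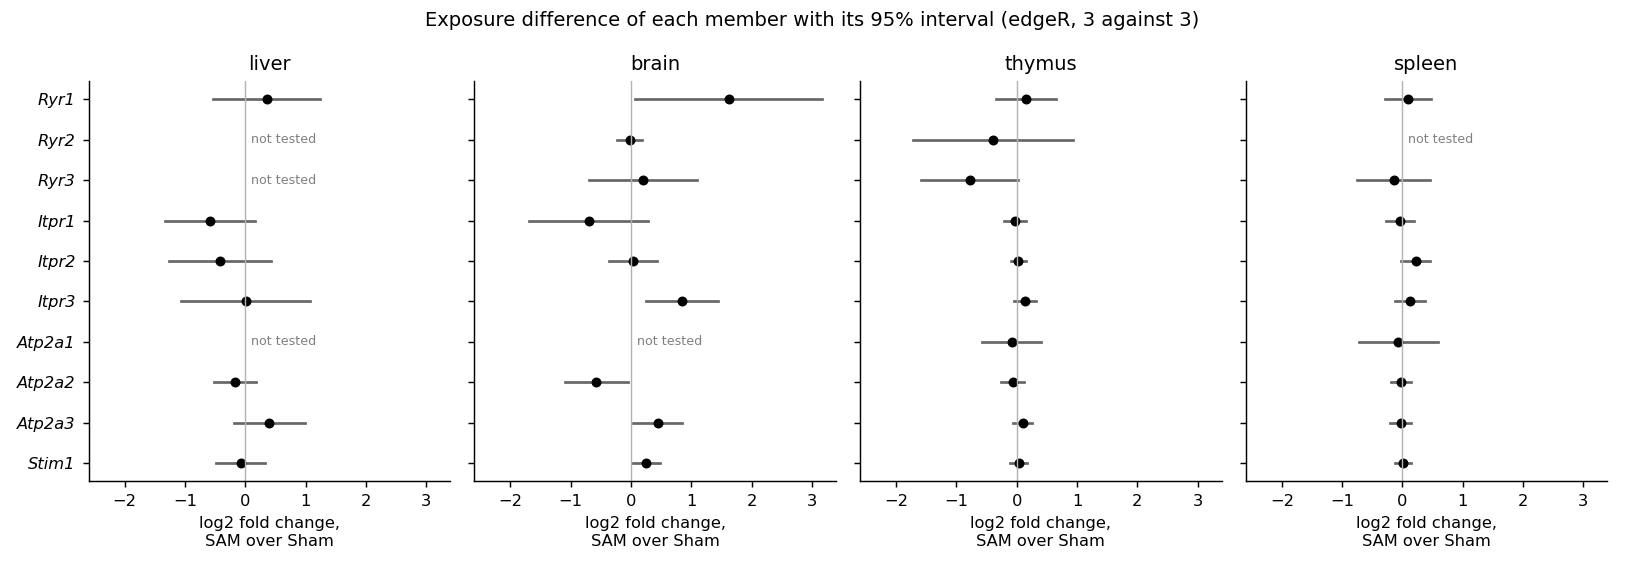
Points give the log2 fold change, SAM over Sham, of each member in each organ and bars its 95% interval, from edgeR with 3 libraries against 3. Ryr1 stood at 1.62 and Itpr1 at -0.70 in brain with wide intervals, while Stim1 had narrow ones in thymus and spleen.

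In brain, SAM 1 and SAM 2 departed from the Sham libraries for Ryr1, Itpr1, Itpr3 and Atp2a2, and SAM 3 lay nearer to the Sham mean. Ryr1 had 68.2, 76.5 and 15.97 CPM in SAM 1, 2 and 3, against 25.7, 7.54 and 20.5 CPM in Sham 13, 15 and 16. SAM 1 and SAM 2 were above every Sham library and SAM 3 was inside their range. The fitted difference was 1.62 ± 0.65 (adjusted p = 0.236). Ryr2 had 226, 247 and 254 CPM in SAM against 269.9, 242 and 244 CPM in Sham brain. These groups overlapped, and the difference of -0.023 ± 0.089 had a 95% interval of -0.24 to 0.19. Ryr3 had 48.1, 57.8 and 20.8 CPM in SAM against 34.2, 30.2 and 48.9 CPM in Sham brain, also overlapping (0.20 ± 0.37, adjusted p = 0.759).

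The IP3 receptor genes of brain showed both directions. Itpr1 had 250.2, 296 and 782 CPM in SAM 1, 2 and 3, against 736, 748 and 723 CPM in Sham 13, 15 and 16. SAM 1 and SAM 2 were far below the close Sham values and SAM 3 was the highest library, and the difference of -0.70 ± 0.41 did not pass (adjusted p = 0.341). Itpr3 had 26.03, 21.2 and 13.8 CPM in SAM 1, 2 and 3, against 11.7, 13.5 and 9.68 CPM in Sham 13, 15 and 16. All 3 SAM libraries were above all 3 Sham libraries, as for 9.33% of all genes in brain, by 0.85 ± 0.25 (adjusted p = 0.221). Itpr2 had 9.72, 14.2 and 14.998 CPM in SAM against 13.2, 12.8 and 12.96 CPM in Sham brain (0.031 ± 0.17).

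Among the pumps, Atp2a2 had 538, 578 and 947 CPM in SAM 1, 2 and 3, against 995, 1152 and 993 CPM in Sham 13, 15 and 16. All SAM libraries lay below all Sham libraries, as for 15.2% of all genes, with a difference of -0.57 ± 0.22 (adjusted p = 0.233). Atp2a3 had 5.74, 7.02 and 5.39 CPM in SAM against 4.09, 4.39 and 5.24 CPM in Sham brain, with no overlap and SAM higher, a difference of 0.44 ± 0.17 (adjusted p = 0.233). Atp2a1, with 2 to 5 reads in SAM and 1 to 3 in Sham libraries, was below the filter. Stim1 had 124, 121 and 104 CPM in SAM 1, 2 and 3, against 96.3, 106 and 98.9 CPM in Sham 13, 15 and 16. SAM 3 fell inside the Sham range and the difference was 0.25 ± 0.098 (adjusted p = 0.235).

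The brain results turned on which SAM libraries were kept. Without SAM 3, 6 of 9 members passed, where 38.1% of all 15493 genes did. Ryr1 then rose by 2.04, Itpr3 by 1.06, Atp2a3 by 0.51 and Stim1 by 0.32 on the log2 scale. Itpr1 (-1.39) and Atp2a2 (-0.87) fell, and adjusted p ran from 2.12e-05 for Itpr1 to 0.0496 for Atp2a3. With SAM 3 alone against Sham, assumed to vary like the Sham libraries, 0 of 9 passed. The values were then -0.15 for Ryr1, 0.035 for Ryr2, -0.84 for Ryr3, 0.11 for Itpr1, 0.23 for Itpr2, 0.28 for Itpr3, -0.12 for Atp2a2, 0.26 for Atp2a3 and 0.079 for Stim1, so Ryr1, Ryr2, Ryr3 and Itpr1 changed sign.

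A fit over all 24 libraries, which shares its estimate of the spread between organs, called 3 members where 3.29% of all genes passed: Ryr1 (1.58, adjusted p = 0.0424), Itpr3 (0.81, adjusted p = 0.0375) and Atp2a2 (-0.61, adjusted p = 0.0396). DESeq2 called 3.33% of all genes in brain and 0 members, the lowest member adjusted p being 0.0569. Without SAM brain 3 the interaction of exposure and organ passed for 990 of 17925 genes by edgeR. Among them were Ryr1 (adjusted p = 0.0276), Itpr1 (adjusted p = 0.0137) and Atp2a2 (adjusted p = 0.00490).

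Sums of several lists of brain markers moved with the same libraries, and those of other lists did not. Of the 8 olfactory bulb markers 6 were tested, and all 6 were higher in SAM (median 3.46 on the log2 scale). The 5 forebrain excitatory neuron markers summed to 651, 759 and 1319 CPM in SAM 1, 2 and 3, against 1518, 1478 and 1423 CPM in Sham 13, 15 and 16. The 6 striatal neuron markers summed to 93.3, 92.9 and 171 CPM in SAM against 170.3, 320.1 and 330.2 CPM in Sham. The 6 cerebellum markers summed to 39.5, 45.4 and 114 CPM in SAM against 101, 84.5 and 105 CPM in Sham. Only 2 of the 6 cerebellum markers were tested, and these 2 were lower in SAM. The number of cerebellum markers without a read was 0 in SAM 1, 2 and 3, against 2, 2 and 1 in Sham 13, 15 and 16. General neuron markers, 5 of 5 lower in SAM, summed to 3255, 3324 and 4710.2 CPM in SAM against 4999, 5296 and 4951 CPM in Sham. SAM 1 and SAM 2 were the lowest libraries for forebrain, striatal, cerebellar and neuron markers and the highest for olfactory bulb markers. Oligodendrocyte markers, 4 of 4 lower in SAM, summed to 3038 to 4077 CPM in SAM against 4174 to 4985 CPM in Sham. Astrocyte markers, 4 of 4 higher in SAM, summed to 1628 to 1998 CPM in SAM against 1348 to 1568 CPM in Sham. For both of these lists SAM 3 too was outside the Sham range. The part of these markers in the values of Ryr1, Itpr1, Itpr3 and Atp2a2 was not tested.

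**Figure D4:**
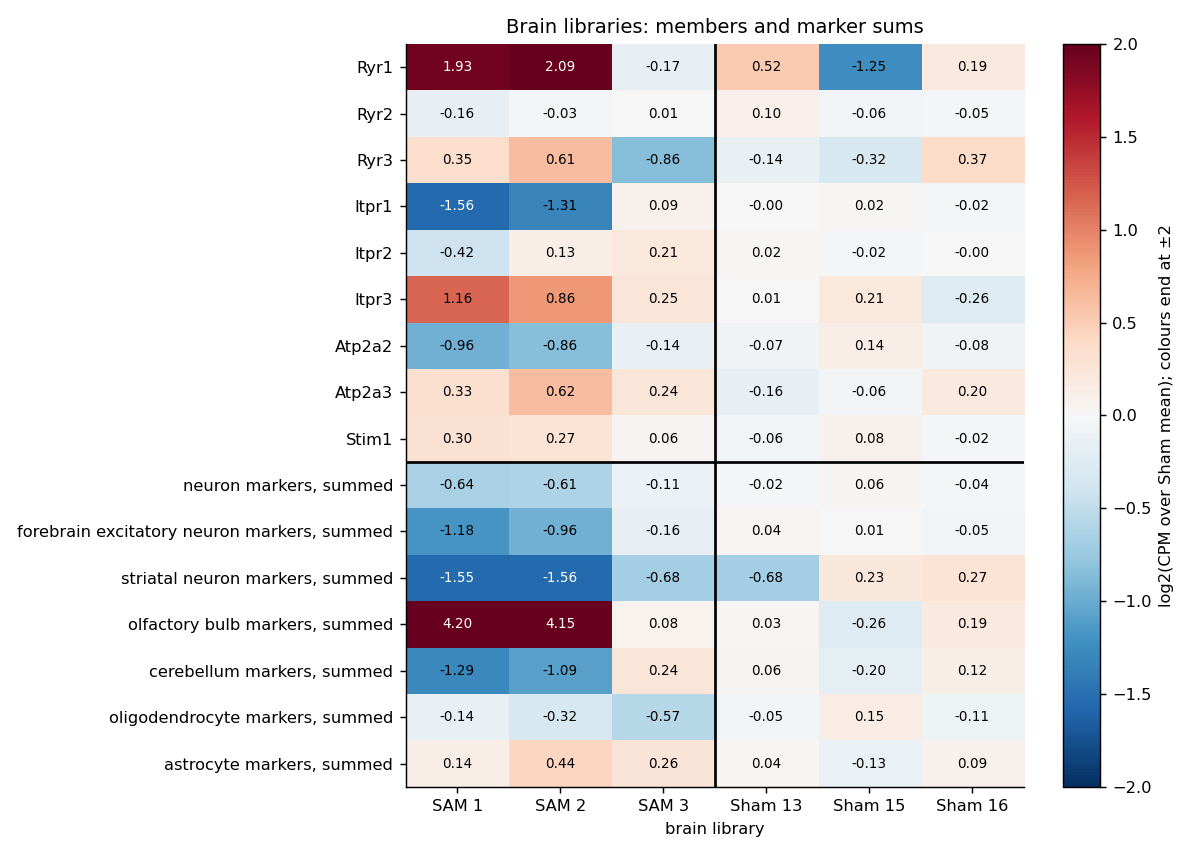
Each cell gives the log2 ratio of a brain library (columns, SAM left of Sham) to the Sham mean, for the 9 tested members (upper part) and for sums of marker genes (lower part), with colours ending at -2 and 2. SAM 1 and SAM 2 are coloured alike for Ryr1, Itpr1, Itpr3, Atp2a2 and the region markers, and SAM 3 is closer to the Sham columns there. For oligodendrocyte markers SAM 3 is the lowest column.

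In liver, Itpr1 and Itpr2 were below every Sham library in SAM 1 and SAM 3, and within the Sham range in SAM 2. Itpr1 had 13.98, 38.3 and 27.3 CPM in SAM 1, 2 and 3, against 39.7, 36.5 and 44.8 CPM in Sham 13, 14 and 15. Itpr2 had 13.8, 43.97 and 36.1 CPM in SAM 1, 2 and 3, against 45.9, 39.1 and 42.04 CPM in Sham 13, 14 and 15. SAM 1 was the lowest library for both, and the groups overlapped for Itpr1 and Itpr2 alike. Their differences were -0.58 ± 0.32 and -0.42 ± 0.36 (adjusted p = 0.802 for each), and without SAM 1 they were -0.29 and -0.077. Stim1 was also lowest in SAM 1, with 65.2, 94.0 and 86.7 CPM in SAM against 76.3, 92.97 and 93.2 CPM in Sham liver (-0.079 ± 0.17). SAM 1 was the liver library with 17.8% mitochondrial counts. With mitochondrially encoded genes removed from the table, no liver member passed (lowest edgeR adjusted p = 0.803). The part of the high mitochondrial share in the Itpr1, Itpr2 and Stim1 values was not tested.

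The remaining liver members overlapped between groups, where 4.9% of all genes were higher and 5.75% lower in SAM without overlap. Ryr1 had 3.39, 4.36 and 2.36 CPM in SAM against 1.76, 2.78 and 3.48 CPM in Sham liver, on 12 to 36 reads per library (0.35 ± 0.38, and 0.12 to 0.58 with each library left out in turn). Atp2a2 averaged 299.7 ± 19.6 CPM in SAM against 342 ± 37.8 CPM in Sham liver (-0.18 ± 0.15), and Atp2a3 8.15 ± 1.33 CPM in SAM against 6.25 ± 1.06 CPM in Sham liver (0.40 ± 0.26). Itpr3 averaged 2.196 ± 1.01 CPM in SAM against 2.26 ± 0.883 CPM in Sham liver (0.0076 ± 0.46), on 5 to 22 reads per library. Ryr2 with 0 reads in all 6 libraries, Ryr3 with 2 reads in SAM 1 and 0 in the others, and Atp2a1 with 0 to 4 reads were below the filter.

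In thymus the well-read members lay within narrow intervals. Atp2a3 averaged 498 ± 23.6 CPM in SAM against 463 ± 34.9 CPM in Sham thymus, a difference of 0.099 ± 0.069 with a 95% interval of -0.062 to 0.26. Itpr2 averaged 87.7 ± 2.09 CPM in SAM against 85.7 ± 4.55 CPM in Sham thymus (interval -0.099 to 0.15), Itpr1 48.96 ± 5.12 CPM in SAM against 49.6 ± 0.665 CPM in Sham thymus (interval -0.21 to 0.16) and Stim1 173 ± 1.15 CPM in SAM against 168 ± 11.4 CPM in Sham thymus (interval -0.11 to 0.17). Each of these 4 intervals included no change. Itpr3 averaged 71.99 ± 4.38 CPM in SAM against 65.3 ± 7.46 CPM in Sham thymus (0.14 ± 0.081), and Atp2a2 153 ± 12.3 CPM in SAM against 159 ± 10.8 CPM in Sham thymus (-0.070 ± 0.081).

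The ryanodine receptor genes of thymus were read at low depth. Ryr3 had 0.752, 1.39 and 1.95 CPM in SAM 1, 3 and 5, against 2.93, 2.06 and 2.003 CPM in Sham 14, 15 and 17, on 18, 36 and 45 reads in SAM and 84, 58 and 57 reads in Sham. All SAM libraries were below all Sham libraries by a small gap, as for 6.59% of all genes (4.93% were higher without overlap), and the difference of -0.78 ± 0.34 did not pass (adjusted p = 0.820). It was -0.50 without SAM 1 and -1.12 without SAM 5. Ryr1 had 5.01, 4.95 and 6.41 CPM in SAM against 3.598, 5.38 and 5.69 CPM in Sham thymus (0.15 ± 0.21). Ryr2 had 2, 17 and 8 reads in SAM against 16, 10 and 15 reads in Sham thymus (-0.39 ± 0.57). The pump gene Atp2a1 averaged 2.78 ± 0.240 CPM in SAM against 2.93 ± 0.691 CPM in Sham thymus (-0.083 ± 0.21). Thymic epithelium markers, 7 of 7 found and none at 0, summed to 485 to 609 CPM in SAM against 856 to 906 CPM in Sham, with all 7 lower in SAM (median -0.50). T cell markers, 5 of 5 higher in SAM, summed to 2887 to 2999 CPM in SAM against 2563 to 2771 CPM in Sham. Their part in the Ryr3 values was not tested.

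In spleen, the groups did not overlap for Itpr2, with SAM higher, as for 4.46% of all genes (4.69% were lower without overlap). It had 44.2, 44.1 and 50.03 CPM in SAM 1, 3 and 5, against 33.6, 43.6 and 41.7 CPM in Sham 14, 15 and 17. The gap between the groups was small beside the spread within Sham, and the difference of 0.22 ± 0.10 did not pass (adjusted p = 0.967). It was 0.12 without Sham 14. T cell markers, 5 of 5 found and none at 0, summed to 458 to 548 CPM in SAM against 402 to 459 CPM in Sham, with all 5 higher in SAM (median 0.25). B cell markers summed to 1561 to 1878 CPM in SAM against 1638 to 1979.9 CPM in Sham, with 4 of 5 lower and 1 higher in SAM (median -0.15). Their part in the Itpr2 values was not tested.

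The other spleen members overlapped. Ryr1 had 14.5, 15.2 and 14.2 CPM in SAM against 9.99, 16.03 and 15.01 CPM in Sham spleen (0.097 ± 0.17), with Sham 14 the low library. Atp2a3 averaged 378 ± 15.98 CPM in SAM against 386 ± 28.7 CPM in Sham spleen (-0.031 ± 0.073), Itpr1 122 ± 14.03 CPM in SAM against 125 ± 10.6 CPM in Sham spleen (-0.041 ± 0.10) and Atp2a2 140.3 ± 6.30 CPM in SAM against 143 ± 9.60 CPM in Sham spleen (-0.026 ± 0.074). Stim1 averaged 107 ± 2.54 CPM in SAM against 106 ± 4.52 CPM in Sham spleen, with a 95% interval of the difference of -0.11 to 0.15. Itpr3 averaged 80.2 ± 6.40 CPM in SAM against 73.7 ± 10.4 CPM in Sham spleen (0.12 ± 0.11), Ryr3 2.55 ± 0.840 CPM in SAM against 2.83 ± 0.354 CPM in Sham spleen (-0.14 ± 0.26) and Atp2a1 1.03 ± 0.281 CPM in SAM against 1.08 ± 0.194 CPM in Sham spleen (-0.067 ± 0.28). Ryr2, with 6 or 7 reads in SAM and 5 to 9 in Sham libraries, was below the filter.

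Isoform shares of SAM and Sham were compared by exact two-sided permutation tests over 36 pairs of gene and organ. With 3 libraries against 3 the smallest p is 0.1 and the lowest adjusted p was 0.45, so no share could pass. Of the IP3 receptor reads of brain, Itpr1 took 87.5, 89.3 and 96.4% in SAM 1, 2 and 3, against 96.7, 96.6 and 97.0% in Sham 13, 15 and 16, a mean of 91.1 ± 4.73% in SAM and 96.8 ± 0.184% in Sham. Itpr2 took 3.399, 4.29 and 1.85% in SAM 1, 2 and 3, against 1.73, 1.65 and 1.74% in Sham 13, 15 and 16. The groups did not overlap for Itpr1 or Itpr2, but SAM 3 lay next to the Sham libraries, and SAM 1 and SAM 2, the libraries high in olfactory bulb markers, stood apart. Of the ryanodine receptor reads of brain, Ryr1 took 19.9, 20.08 and 5.49% in SAM 1, 2 and 3, against 7.81, 2.69 and 6.53% in Sham 13, 15 and 16. Ryr2 took 66.0, 64.8 and 87.4% in SAM 1, 2 and 3, against 81.8, 86.5 and 77.9% in Sham 13, 15 and 16. SAM 3 was within the Sham range for Ryr1 and above it for Ryr2, and SAM 1 and SAM 2 were outside the Sham range for both. In thymus, Ryr1 took 76.7 ± 7.95% in SAM against 62.97 ± 10.6% in Sham, and Ryr3 18.4 ± 4.94% in SAM against 30.7 ± 9.27% in Sham, on 140 to 201 family reads in SAM and 203 to 234 in Sham libraries. Leaving out single libraries gave Ryr3 differences in thymus from -15.6 to -7.04 percentage points. The thymus groups did not overlap for Ryr1 or Ryr3. Nor did those of brain for Atp2a2 (99.03 ± 0.339% in SAM, 99.6 ± 0.0737% in Sham) and Atp2a3 (0.940 ± 0.332% and 0.438 ± 0.0770%). Itpr2 in spleen (18.6 ± 1.12% and 16.6 ± 0.477%) did not overlap either. The same held for Atp2a1 in brain, on 2 to 5 reads in SAM and 1 to 3 in Sham libraries. All other shares overlapped. The gene with the largest mean share of each family was the same in SAM and Sham in all 4 organs. In liver this was Itpr2 over Itpr1, by a margin within the spread in Sham.

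The other genes of calcium handling were taken from a list of 92 symbols, of which 90 were found: genes of store entry, regulators of pumps and channels, junction proteins and voltage sensors, store buffers, export pumps and exchangers, IP3 metabolism, mitochondrial and lysosomal calcium, and calcium effectors. edgeR tested 87 of them in brain, 80 in spleen, 77 in thymus and 73 in liver, and 0 passed in each. Before adjustment, 15 of 87 were higher and 7 lower in SAM brain at a p of 0.05, where 20.5% of all genes passed. With SAM 3 alone against Sham, 7 of 88 were higher and 0 lower at that level, where 7.25% of all genes passed, and 0 passed after adjustment. The numbers higher and lower were 1 and 0 in liver (2.7% of all genes), 0 and 3 in thymus (6.13%), and 2 and 2 in spleen (4.11%). The list's median log2 fold change was -0.058 in brain, 0.048 in liver, -0.054 in thymus and -0.0085 in spleen, beside the medians of all genes given above, and 0.036 in brain with SAM 3 alone (all genes -0.0029). In thymus 55 of 77 values were negative, where 50.5% of all genes were. These included 6 of 6 export genes, 4 of 4 junction and voltage sensor genes and 5 of 5 store buffers. The remaining groups were mixed. Negative values numbered 9 of 12 for IP3 metabolism, 5 of 7 for store entry and 9 of 14 for pump and channel regulators. They numbered 9 of 15 for mitochondrial and lysosomal calcium and 8 of 14 for calcium effectors. The thymic epithelium markers (7 of 7 lower) and T cell markers (5 of 5 higher) differed between the same libraries, and their part in these signs was not tested. In brain the junction and voltage sensor group had the highest median, 0.42 over 8 genes, with 4 higher and 4 lower in SAM. The calcium effectors had the lowest, -0.35 over 14, with 6 higher and 8 lower in SAM. With SAM 3 alone these medians were 0.21 over 9 and 0.0047 over 14 genes.

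The genes of the list with the lowest p in brain were Nfatc1, a transcription factor activated by calcineurin, at 11.7 ± 4.06 CPM in SAM against 4.499 ± 0.556 CPM in Sham (1.42 ± 0.29, adjusted p = 0.221), and Pkd2, a cation channel, at 45.97 ± 5.18 CPM in SAM against 33.5 ± 0.571 CPM in Sham (0.49 ± 0.10). Trdn, which anchors calsequestrin to the ryanodine receptor in muscle, had 28.5 ± 23.8 CPM in SAM against 0.450 ± 0.172 CPM in Sham brain (6.01 ± 1.34). Casq2, the calsequestrin of heart, had 1.46 ± 0.473 CPM in SAM against 0.644 ± 0.107 CPM in Sham (1.22 ± 0.33). The adjusted p of Pkd2, Trdn and Casq2 was that of Nfatc1, and all 4 genes stood above Sham in all 3 SAM libraries, as did 9.33% of all genes. DESeq2 gave an adjusted p to 84 of the list in brain and called 5, all higher in SAM. It called 2.41% of all 15126 genes as higher, a share that also counts genes without an adjusted p. The 5 were Trdn (6.02, adjusted p = 8.66e-04), Nfatc1 (1.42, adjusted p = 0.00242), Pkd2 (0.49, adjusted p = 0.0132), Homer2, a scaffold that binds IP3 and ryanodine receptors (1.37, adjusted p = 0.0197), and Cacna1c, a pore subunit of voltage-gated calcium channels (1.25, adjusted p = 0.0310). With SAM 3 alone against Sham the values were 0.66 for Nfatc1, 0.29 for Pkd2, 1.21 for Trdn and 0.51 for Casq2. Cardiac muscle markers, 6 of 6 found, summed to 29.2, 27.3 and 16.6 CPM in SAM 1, 2 and 3, against 9.94, 12.8 and 16.5 CPM in Sham brain. Of these 6, 4 were tested in brain, with 3 higher and 1 lower in SAM. Myl7 and Actc1 had at most 3 reads in any brain library. Olfactory bulb markers, given above, were far higher in SAM 1 and SAM 2 than in the other brain libraries. The part of these markers in the values of Trdn, Casq2, Nfatc1 and Pkd2 was not tested.

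In liver the lowest p values were those of Itpkc, an IP3 kinase, at 14.2 ± 0.402 CPM in SAM against 9.59 ± 0.864 CPM in Sham (0.58 ± 0.20), S100a1, a calcium-binding regulator of pumps and release channels (-0.82 ± 0.43), the mitochondrial exchanger Slc8b1 (0.35 ± 0.19) and the chaperone Canx (-0.33 ± 0.18), each with an edgeR adjusted p of 0.802. In thymus they were Pkd2 (-0.33 ± 0.11, adjusted p = 0.674), the calcineurin subunit Ppp3ca (-0.22 ± 0.088), Mcub, an inhibitory subunit of the mitochondrial uniporter (-0.47 ± 0.20), and the entry channel Orai3 (-0.28 ± 0.12). In spleen they were the plasma membrane pump Atp2b4, at 115 ± 12.86 CPM in SAM against 87.5 ± 6.90 CPM in Sham (0.39 ± 0.10), Saraf, which dampens store entry (-0.21 ± 0.080), Plcg1, a phospholipase that makes IP3 (0.19 ± 0.079), and Nfatc4, an effector of calcineurin (-0.21 ± 0.094), each with an edgeR adjusted p of 0.967. None of these liver, thymus and spleen differences passed by edgeR or DESeq2.

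**Figure D5:**
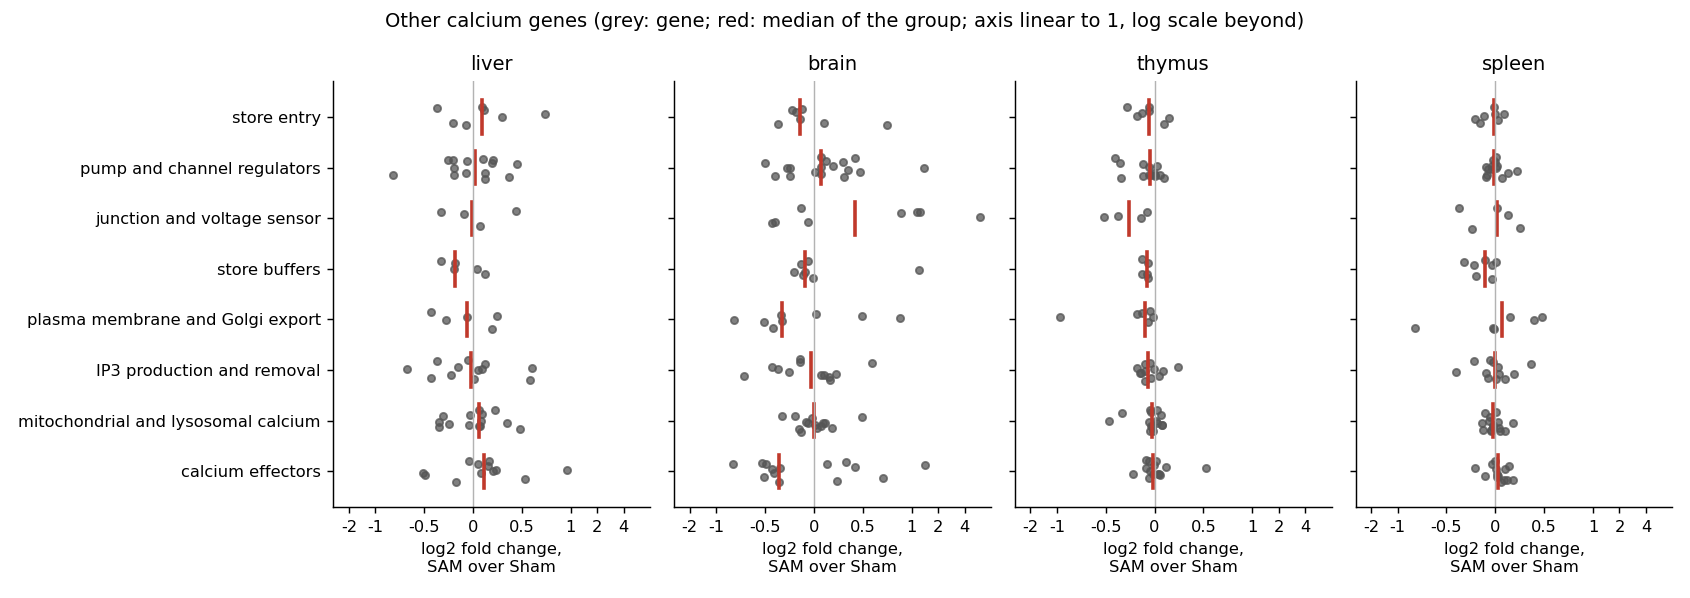
Points give the log2 fold change, SAM over Sham, of the tested genes of 8 groups of calcium handling genes in each organ, on an axis that is linear to 1 and logarithmic beyond, with red lines at the median of each group. Trdn in brain, at 6.01, lies far from the other points.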

How the data were processed

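RNA was extracted with RNeasy and went into TruSeq stranded mRNA libraries, per the labels' protocols. STAR 2.2.1 and build rn6 are named, without a role, per the submitters' processing notes. How reads were counted, with which annotation and strand setting, is not given in the sources used here. Reads of overlapping or antisense genes therefore cannot be told apart from those of members. What the authors deposited is a single table of raw counts. All its columns begin with SAM, Sham animals included, and were tied to samples through organ and animal number. Of its 32883 genes, 47 have no symbol.

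The counts were tested with edgeR 4.0.16 in R 4.3.3 (filterByExpr, TMM, glmQLFTest, Benjamini-Hochberg at 0.05 over all genes tested): SAM minus Sham within an organ, pairs of organs over the 12 Sham libraries, and the interaction over 24. CPM values use TMM factors of all 24 libraries, and each fit its own. Alternatives were DESeq2 1.42.0, RLE size factors, no filter, 1 fit of all libraries, SAM in place of Sham libraries, a block by animal number, removal of mitochondrially encoded genes in liver, and each library left out. The labels do not say whether equal animal numbers in different organs are the same rat, and this was not settled here. Deviations from group means correlated with a median r of 0.034 over 14 SAM pairs of equal number and -0.017 over 40 of unequal number. In Sham the medians were 0.037 over 11 pairs and -0.0089 over 43. Correlations above 0.1 numbered 0 of 14 and 0 of 40 in SAM, and 2 of 11 and 1 of 43 in Sham. Organ tests without the block do not account for a possible pairing. Nothing in the labels says that animals were exposed apart, so p-values measure the spread between these samples. Shares were planned per coding length, but raw reads were used because no lengths were at hand.

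Members and lists were chosen with earlier results of these data known. Besides the members, the text names per organ the 4 list genes with the lowest p and a mean of at least 1 CPM, and per member the 2 genes with the highest correlation of log2 CPM (prior count 2).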

Additional observations from a re-analysis of the deposited data

Results flagged for a closer look

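Pkd2, a cation channel gene of the calcium handling list, was higher in every SAM library than in every Sham library in brain (0.49 on the log2 scale) and lower in every SAM library than in every Sham library in thymus (-0.335). Neither difference passed by edgeR (adjusted p = 0.221 in brain and 0.674 in thymus), and the brain difference passed by DESeq2 (adjusted p = 0.0132). Of all genes, 9.33% were higher without overlap in brain and 6.59% lower without overlap in thymus. With SAM 3 alone against Sham the brain value was 0.29. Pkd2 is given here because its libraries did not overlap, with opposite signs in brain and thymus. The interaction of exposure and organ did not pass for Pkd2 (edgeR adjusted p = 0.448 over all genes).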

How the results depend on the processing

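Over all genes, the number passing for SAM minus Sham in liver was 2 by DESeq2, 1 with RLE size factors, 1 without the low-count filter and 3 in 1 fit of all libraries. In brain it was 503 by DESeq2, 579 in that fit and 1 with SAM 1 and SAM 2 left out. In thymus it was 100 by DESeq2, 3 without the filter and 3 in that fit, and in spleen 7 by DESeq2. The interaction gave 15 without the filter and 1 with brain SAM 1 and SAM 2 left out. Leaving out each library in turn gave 0 to 1 in liver, 0 to 5896 in brain (the highest without SAM 3), 0 to 0 in thymus, 0 to 1 in spleen, and 1 to 990 for the interaction, with 990 without SAM brain 3, 68 without SAM liver 2, 11 without Sham brain 16, 5 without SAM liver 1, and 1 without SAM brain 1, SAM brain 2 or Sham brain 15. The causes were not tested.

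The sign of small SAM minus Sham differences, none of which passed, turned for some members when single libraries were left out, with these ranges. In liver these were Itpr3 (-0.25 to 0.37) and Stim1 (-0.17 to 0.050). In brain these were Ryr2 (-0.057 to 0.030), Ryr3 (-0.086 to 0.52) and Itpr2 (-0.082 to 0.20). In thymus these were Ryr1 (-0.037 to 0.26), Ryr2 (-1.15 to 0.063), Itpr1 (-0.11 to 0.018), Itpr2 (-0.0015 to 0.045) and Atp2a1 (-0.21 to 0.11). In spleen these were Ryr1 (-0.081 to 0.23), Ryr3 (-0.45 to 0.041), Itpr1 (-0.12 to 0.044), Atp2a1 (-0.31 to 0.053), Atp2a2 (-0.079 to 0.019), Atp2a3 (-0.087 to 0.012) and Stim1 (-0.0097 to 0.046). Of the 35 differences, 18 kept their sign, and 13 of these moved by over 1.5 times, among them Itpr2 in spleen (0.12 to 0.29) and Itpr3 in spleen (0.014 to 0.19). Without the filter, liver Itpr3 was -0.0037, and in 1 fit of all libraries brain Itpr2 was -0.0044. With brain SAM 1 and SAM 2 left out, the sign turned for Ryr1 (-0.15), Ryr2 (0.035), Ryr3 (-0.84) and Itpr1 (0.11).

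No paired analysis was possible because SAM and Sham animals share no number. Between organs, animal numbers were tried as a replicate block. Brain minus spleen then turned for Ryr1 (-0.44) and Stim1 (0.092). The block lost Ryr1 in brain minus thymus (1.04) and Stim1 in spleen minus liver (0.16), gained Stim1 in brain minus liver (0.25) and Atp2a3 in thymus minus spleen (0.26), and gave the interaction 3 genes. Stim1 in brain minus spleen was 0.10 with RLE size factors, 0.10 by DESeq2 and 0.15 in SAM libraries, where Itpr2 in spleen minus liver was 0.79. Left-out libraries gave -0.17 to 0.28 for that Itpr2 difference and -1.62 to 4.02 for Atp2a1 in brain minus liver, fitted on at most 4 reads per library and giving no direction. Shares per coding length were not run. Low counts limit Ryr2 and Ryr3 outside brain, Atp2a1, and Ryr1 and Itpr3 in liver.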
